A study of Mus musculus with 6 samples.

Results

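Aminoacyl-tRNA synthetases are the enzymes that join each amino acid to its tRNA, and their 35 genes named here were picked by symbol and not by a cut on measured values, although earlier results of these data were known when the set was chosen. All 35 were among the 13363 genes with deposited values. Of these, 19 code for the cytosolic enzymes and 16 for the mitochondrial ones. Gars1 and Kars1 code for both forms of the glycyl and lysyl enzyme and were counted with the cytosolic genes, so 17 genes code for the cytosolic form alone. RNA was sequenced from the gastrocnemius, a calf muscle, in 2 groups of 3 muscles each, all from Balb/c mice. The study's mice were males bought at an age of 6 weeks and kept for 1 week before use. C26 mice carried tumors of the colon-26 adenocarcinoma line inoculated under the skin, a graft model of cancer cachexia, the wasting of muscle and fat that accompanies tumors. Control mice carried no tumor. The tumor is of 1 cell line, and the labels number the muscles without saying whether each came from a different mouse, so p-values measure the spread between these muscles.

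Cells need 1 charged tRNA for every residue they add to a protein. Animals keep a set of synthetases for the cytosol and another, also coded in the nucleus, for the ribosomes of mitochondria, which make a few subunits of the respiratory chain. Some of the cytosolic enzymes sit in a large multisynthetase complex held together by scaffold proteins. Synthetases fall into class I and class II by the fold of the catalytic domain. Uncharged tRNA is sensed by the kinase Gcn2, which acts through eIF2α on the transcription factor Atf4, and several synthetase genes are known targets of Atf4. Skeletal muscle is the body's main store of protein, and its protein turnover shifts during wasting.

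Levels are given as TPM (transcripts per 1000000, corrected for gene length) scaled between muscles by TMM factors (trimmed mean of M-values), and changes as log2 fold changes of TPM + 1. A gene was called where limma gave an adjusted p under 0.05 after Benjamini-Hochberg adjustment over all listed genes. Deposited FPKM totals were 531061 to 585169 for C26 muscles and 626992 to 688300 for controls, and the read depth behind them is unknown. Of all genes, 33.8% were called, 19.4% higher and 14.5% lower in C26 muscle, and their median log2 fold change was -0.05. On the FPKM as deposited the split turned from 2589 higher and 1932 lower to 1678 higher and 2504 lower. The 8 myofiber markers summed to 140107, 115274 and 179518 TPM in C26 muscles against 193213, 213019 and 190176 in controls. They were thus abundant in all 6 muscles. The sum was lower in every C26 muscle than in every control, but the groups overlapped on the mean of the markers' log2 levels, at 13.37, 12.81 and 14.11 against 13.85, 14.20 and 13.89, and for 5 of the 8 markers. The mean of log2 levels weighs the 8 myofiber markers alike. Mb, named after its value was seen, had 488, 127 and 9287 TPM in C26 muscles against 866, 2657 and 1281 in controls. Markers of other cells also differed between muscles. The adipocyte sum was 774, 513 and 904 TPM in C26 muscles against 8234, 4490 and 1073 in controls. Fabp4 and Car3, named after their values were seen, made up 469 and 429 of the 904 TPM in C26 replicate 3. On the mean of log2 levels the adipocyte markers stood at 3.78, 3.33 and 2.76 against 8.50, 7.45 and 4.95. The fibroblast sum was 301 to 436 against 549 to 774. The endothelial sum was 119 to 126 against 141 to 200.2. The immune sum was 206, 518 and 95.9 against 204, 141 and 2038 in controls. Cd74 and Cd68 are named after their values were seen. Cd74 made up 1651 of the 2038 TPM in control replicate 3, and Cd68 made up 422 of the 518 TPM in C26 replicate 2. The erythroid sum was 1053 to 2248 against 475 to 761. The part of these cell types in the results below was not tested. In bulk muscle, fewer cells of a type and less RNA per cell cannot be told apart.

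Most of the cytosolic synthetase genes rose in C26 muscle, and few of the mitochondrial ones were called. Among the cytosolic genes, 15 of 19 (78.9%) were called higher and 0 lower, against 19.4% of all genes called higher. The median log2 fold change of the cytosolic genes was 0.91, with a range from -0.36 to 1.72. Among the mitochondrial genes, 2 of 16 (12.5%) were called higher and 1 (6.25%) lower, with a median log2 fold change of 0.02 and a range from -0.97 to 0.85. The groups of 3 muscles did not overlap for 53.5% of all genes and for 23 of the 35 synthetase genes. They lay apart, with C26 higher, for 16 cytosolic and 3 mitochondrial genes, against 27.0% of all genes. They lay apart, with C26 lower, for 1 cytosolic and 3 mitochondrial genes, against 26.5% of all genes. Changes were moderate in size. No synthetase passed a fold change of 4, which 3.49% of all genes did with an adjusted p under 0.05 (1.76% upward). A fold change of 2 was passed by 9 cytosolic genes, and the share of all genes past it was not computed. Leaving out 1 muscle lowered the counts more than the fold changes. The cytosolic count was 7 without control replicate 1 and 8 without C26 replicate 1, where the count over all genes also fell, from 2589 to 1151 and 1127. It was 16 without C26 replicate 3. Under quantile normalization in place of TMM, 9 cytosolic genes were called higher with a median of 0.61, and the cytosolic median lay 0.39 above the mitochondrial one instead of 0.89. On the FPKM as deposited 12 were called higher with a median of 0.69, and 14 on TPM without TMM. On TPM without TMM, 1 mitochondrial gene gained a call and 0 lost one. The mitochondrial genes had 1 call higher and 5 lower on the FPKM as deposited, with a median of -0.14, which was also the median over all genes on that scale. The cytosolic median stayed between 0.84 and 1.10 in the 6 fits that left out a muscle.

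**Figure D1:**
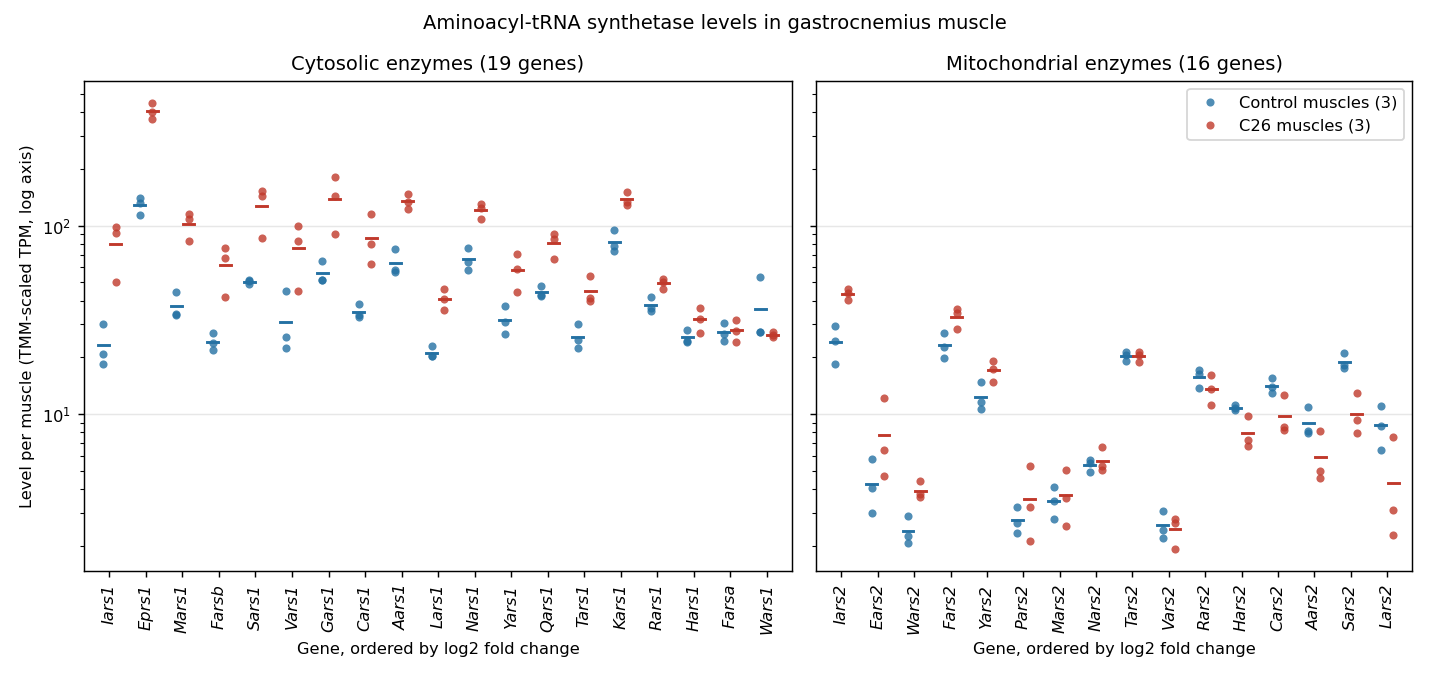
Level of each synthetase gene in each muscle, in TMM-scaled TPM on a log axis, with controls in blue, C26 muscles in red and a dash at each group's mean; genes are ordered by log2 fold change. The red points lie above all blue ones for 16 of the 19 cytosolic genes and for 3 of the 16 mitochondrial genes.

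Within the multisynthetase complex, 6 of 7 genes rose, against 19.4% of all genes called higher, with a median log2 fold change of 0.91. Iars1, the isoleucyl enzyme, had 91.3, 98.2 and 50.4 TPM in C26 muscles against 20.9, 30.03 and 18.5 in controls. Every C26 muscle was above every control, and C26 replicate 3 was well under the other C26 muscles. It rose by 1.72 log2 units (SE 0.31, adjusted p = 0.00976, limma), the most of the 35 genes. Eprs1 codes for a fused enzyme that charges tRNA with glutamate and with proline, and it had the highest level of all 35 genes. It measured 398, 445 and 367 TPM against 114, 139.8 and 131, so that the lowest C26 muscle stood at more than 2 times the highest control. It rose by 1.64 log2 units (SE 0.15, adjusted p = 0.00201, limma). Mars1, the methionyl enzyme, whose product also serves to start every protein, measured 108, 115 and 82.7 TPM against 34.1, 44.2 and 33.5. It rose by 1.43 log2 units (SE 0.19, adjusted p = 0.0051, limma). The groups lay far apart for this gene too.

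Lars1, the leucyl enzyme, which also serves as a leucine sensor for mTORC1, rose from 20.2, 22.9 and 20.4 TPM in controls to 35.8, 46.1 and 40.9 in C26 muscles, or by 0.91 log2 units (adjusted p = 0.00792, limma). Qars1, for glutamine, rose by 0.83 (adjusted p = 0.0127) and Kars1, for lysine, by 0.75 (adjusted p = 0.0148) on the log2 scale. Kars1 had 134, 151 and 128 TPM against 77.6, 94.8 and 73.1 and was the gene with the second highest control level. The exception in the complex was Rars1, for arginine. It measured 50.3, 52.0 and 46.3 TPM against 35.2, 41.7 and 36.3, so its groups did not overlap, but its log2 fold change of 0.39 did not pass the test (95% interval 0.06 to 0.71, adjusted p = 0.0682, limma). Without C26 replicate 3 the adjusted p of Rars1 was 0.031.

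Outside the complex, 9 of 12 cytosolic genes rose, against the same share of all genes, with a median log2 fold change of 0.97. Sars1, the seryl enzyme, had 143, 152 and 85.4 TPM in C26 muscles against 49.0, 50.8 and 51.2 in controls (log2 fold change 1.27, SE 0.24, adjusted p = 0.0109, limma). Its controls lay within a narrow band, and its spread came from the C26 side. Gars1 had 143, 181 and 90.1 TPM against 51.6, 64.5 and 51.7 (1.24, SE 0.27, adjusted p = 0.0168). Cars1, for cysteine, had 80.2, 115 and 62.6 TPM against 33.3, 38.4 and 32.6 (1.24, SE 0.24, adjusted p = 0.0117). In both genes C26 replicate 2 was the highest muscle and replicate 3 the lowest of the C26 group.

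Aars1, the alanyl enzyme, varied less between the C26 muscles than Sars1, Gars1 or Cars1. It measured 133, 147 and 122 TPM against 58.1, 75.3 and 56.7, a rise of 1.08 log2 units (SE 0.17, adjusted p = 0.00698, limma). A share of 23.1% of its exonic bases in the GENCODE M21 annotation of GRCm38 is shared with Exosc6 on the same strand, so reads there cannot be told apart. Nars1, for asparagine, measured 109, 124 and 129.6 TPM against 64.2, 76.4 and 58.1 (0.86, adjusted p = 0.0108). It was 1 of 2 cytosolic genes with the highest C26 value in replicate 3, the other being Farsa. Yars1, for tyrosine, rose by 0.84 (adjusted p = 0.0283) and Tars1, for threonine, by 0.78 (adjusted p = 0.0217) on the log2 scale.

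Vars1, the valyl enzyme, passed the test by little. It had 83.2, 99.2 and 45.1 TPM in C26 muscles and 22.3, 25.7 and 44.8 in controls, so that control replicate 3 nearly met C26 replicate 3. The log2 fold change was 1.26, with a 95% interval from 0.37 to 2.15 (adjusted p = 0.0419, limma). The call was lost without C26 replicate 1 (adjusted p = 0.132), C26 replicate 2 (0.124), control replicate 1 (0.131) or control replicate 2 (0.106).

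Phenylalanyl-tRNA synthetase is the cytosolic enzyme made of 2 different chains, and the gene of 1 chain alone was called. Farsb, for the beta chain, measured 67.2, 76.2 and 41.6 TPM in C26 muscles against 23.8, 27.1 and 21.7 in controls. It rose by 1.27 on the log2 scale (95% interval 0.68 to 1.86, adjusted p = 0.0121, limma). Farsa, for the alpha chain, measured 27.7, 24.2 and 31.6 TPM against 24.5, 26.6 and 30.4. Its groups overlapped, with a log2 fold change of 0.03 (95% interval -0.35 to 0.42, adjusted p = 0.886). In controls the chains had like levels, 24.2 ± 2.68 TPM for Farsb and 27.2 ± 3.0 for Farsa (SD, n = 3), while in C26 muscles the means were 61.6 ± 17.97 and 27.8 ± 3.69. The intervals of the 2 changes did not overlap, although the difference between them was not tested. Of the exonic bases of Farsb, 11.3% overlap Sgpp2 on the other strand, and whether the libraries kept the strand is not stated.

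The remaining cytosolic genes without a call were Hars1 and Wars1. Hars1, for histidine, had 27.0, 36.6 and 31.8 TPM against 24.5, 28.0 and 24.2 (log2 fold change 0.30, adjusted p = 0.189, limma), and 9.80% of its exonic bases overlap its mitochondrial partner Hars2 on the other strand. Wars1, for tryptophan, was the only cytosolic gene with a lower mean in C26 muscle. It measured 25.5, 27.2 and 26.4 TPM in C26 muscles and 53.3, 27.3 and 27.3 in controls. The C26 muscles lay just under the 2 lower controls, and control replicate 1 stood alone at about 2 times every other muscle. The log2 fold change was -0.36 (95% interval -1.02 to 0.29, adjusted p = 0.328). Wars1 is known to be induced by interferon gamma, and the 12 interferon-inducible genes listed summed to 520 TPM in that same control muscle, against 125 and 147 in the other controls and 31.5 to 34.4 in C26 muscles. Of these 12 genes, 8 were called lower in C26 muscle and 0 higher, against 14.5% of all genes called lower. The lower count was 3 without C26 replicate 1 and 5 without C26 replicate 2. Those with the largest changes were Isg15 (-3.39, adjusted p = 0.0341), Gbp3 (-3.32, adjusted p = 0.0174), Psmb8 (-2.80, adjusted p = 0.0127) and Gbp7 (-2.44, adjusted p = 0.0136), all by limma on the log2 scale. Control replicate 1 was the highest muscle for Isg15 and Gbp3. Isg15 had 107, 17.4 and 5.88 TPM and Gbp3 50.6, 8.77 and 5.33 in controls, although every C26 muscle was below 2 TPM for both. The lower count was 7 without that control. The call of Isg15 held in 2 of 6 fits with a muscle left out and that of Gbp3 in 4. Whether interferon-inducible genes and Wars1 share a source in that muscle was not tested.

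**Figure D2:**
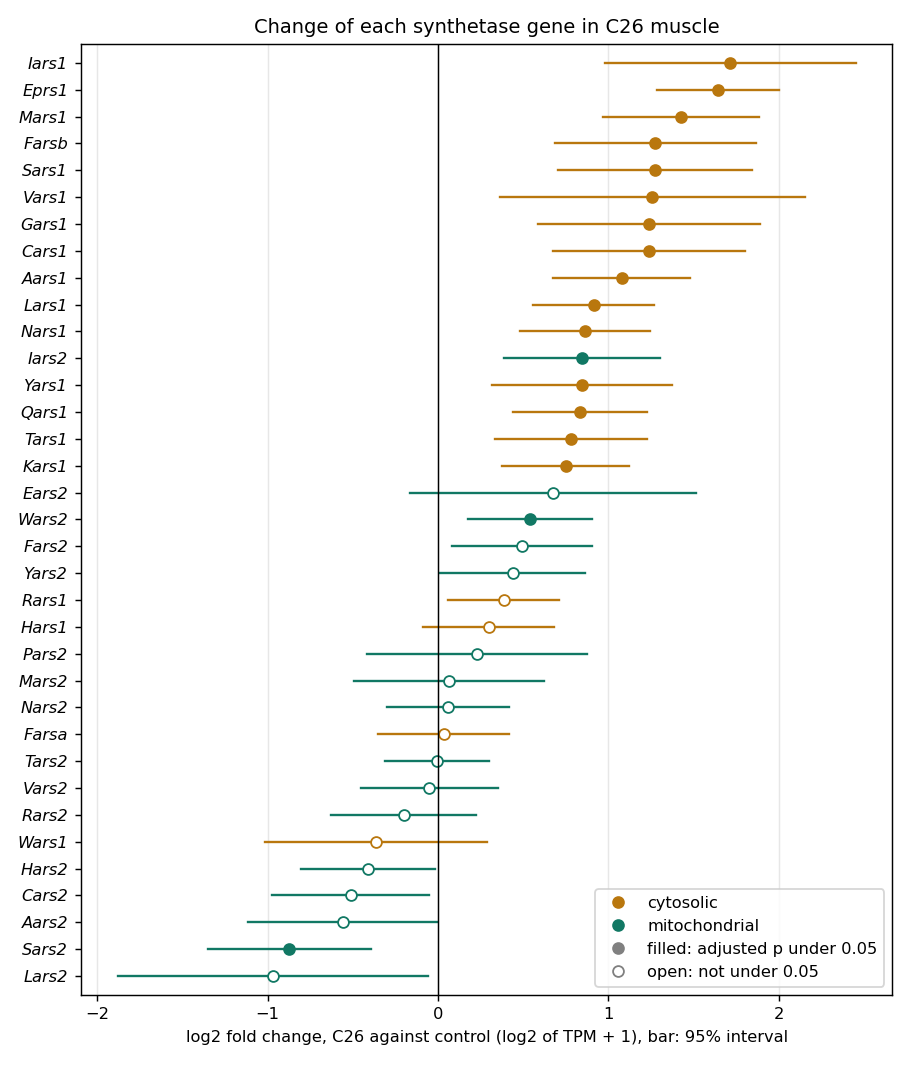
Log2 fold change of each synthetase gene in C26 muscle against control, on the log2(TPM + 1) scale, with 95% intervals as bars; filled points had an adjusted p under 0.05. The 15 filled cytosolic points lie between 0.75 and 1.72, while the mitochondrial points scatter from -0.97 to 0.85 around a median of 0.02.

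The C26 muscles did not all rise by the same amount. Of the 15 cytosolic genes called, 12 had their lowest C26 value in replicate 3 and 14 their highest in replicate 2. Of all genes called higher, 71.8% had their lowest C26 value in replicate 3. C26 replicate 3 also had the highest myofiber marker sum of its group, and the part of the myofiber share in these levels was not tested. Called in all 6 fits with a muscle left out were 7 genes, namely Iars1, Eprs1, Mars1, Sars1, Aars1, Lars1 and Nars1. The other 8 lost the call in at least 1 fit. Cars1 lost it without control replicate 1 (adjusted p = 0.0508, limma). Farsb, Gars1 and Qars1 lost it without C26 replicate 1 or control replicate 1, with adjusted p up to 0.0665. Tars1 and Kars1 lost it without either of these muscles or C26 replicate 2, with adjusted p up to 0.0791. Yars1 lost it without those 3 muscles or control replicate 3, with adjusted p up to 0.0958. Both classes of enzyme were among the genes that rose. Among class I cytosolic genes 7 of 9 rose with a median of 0.91, and among class II genes 7 of 9 rose with a median of 0.86. Of all genes, 19.4% were called higher. Eprs1, which holds a domain of each class, was counted in neither class.

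Promoter windows of RefSeq (250 bases before to 50 bases after the annotated start, GRCm38.p6) were found for 26 of the 35 genes, 12 cytosolic and 14 mitochondrial. Cars1, Hars1, Lars1, Nars1, Rars1, Vars1, Wars1, Hars2 and Pars2 had none. The letters TGATGNAA, which describe the composite element bound by Atf4 with a C/EBP partner, were searched on both strands. They stood in the windows of 5 of 12 cytosolic genes (Aars1, Gars1, Iars1, Tars1 and Yars1) and 0 of 14 mitochondrial genes, against 4.51% of 27025 genes with a window and 2.83% of the 10600 listed genes among them. Of the 12 cytosolic genes with a window, 11 were called higher in C26 muscle, these 5 among them, so the calls do not set the 5 apart. A match is a description of the letters and not evidence of binding. The core of interferon-stimulated response elements, searched as 2 runs of GAAA with any 2 bases between them, stood in the window of Qars1 alone (3.99% of genes with a window). TTCNNNGAA, the core bound by STAT factors and, being its own reverse complement, counted once per place, stood in those of Aars1, Kars1 and Nars2 (9.55% of genes). The element overlapped neither of the other motifs at the places shown.

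The stretches with TGATGNAA are shown because they are what the 5 cytosolic genes share that the choice of genes did not use. Each gene is shown at its place nearest the annotated start. The stretches are written 5′ to 3′ on the strand of the gene, with the element in capitals. On that strand, 4 of the 5 places shown hold its reverse complement. Places are given by the first base of the element, with the annotated start as base 1.
Aars1, chr8:111033840-111033869, plus strand, place 10: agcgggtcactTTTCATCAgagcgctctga
Iars1, chr13:49682126-49682155, plus strand, place 8: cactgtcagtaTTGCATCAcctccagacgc
Tars1, chr15:11399655-11399684, minus strand, place -15: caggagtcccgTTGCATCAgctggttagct
Yars1, chr4:129189895-129189924, plus strand, place 4: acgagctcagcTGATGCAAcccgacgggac
Gars1, chr6:55037851-55038000, plus strand, place -30: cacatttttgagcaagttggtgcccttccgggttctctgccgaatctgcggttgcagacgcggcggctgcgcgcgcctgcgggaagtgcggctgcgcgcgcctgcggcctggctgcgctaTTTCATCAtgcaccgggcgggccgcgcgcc
The stretches of Aars1, Iars1, Tars1 and Yars1 overlap annotated exons, and the 150 bases before the start of Gars1 do not. The log2 fold changes of these 5 genes ran from 0.78 for Tars1 to 1.72 for Iars1, within the range of the called cytosolic genes as a whole.

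Among the mitochondrial genes the levels were lower, with a median control level of 9.90 TPM against 36.0 for the cytosolic genes. The genes called higher were Iars2 and Wars2. Iars2, the mitochondrial isoleucyl enzyme, had 43.9, 45.9 and 40.3 TPM in C26 muscles against 24.3, 29.4 and 18.5 in controls. All C26 muscles were above all controls, and the fold change was 1.80 (adjusted p = 0.0187, limma). Iars2 shares 30.5% of its exonic bases with Rab3gap2 on the other strand. Wars2, the tryptophanyl enzyme, had 4.41, 3.61 and 3.77 TPM against 2.07, 2.88 and 2.27, a log2 fold change of 0.54 (adjusted p = 0.0362). The cytosolic Wars1 had no such rise. Fars2, for phenylalanine, had 34.3, 28.2 and 36.2 TPM against 19.9, 26.9 and 22.7, without overlap of the groups but short of the threshold (log2 fold change 0.49, adjusted p = 0.0668).

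Sars2, the mitochondrial seryl enzyme, was the gene called lower. It measured 7.92, 9.26 and 13.0 TPM in C26 muscles against 18.2, 17.5 and 21.1 in controls, so all C26 muscles lay below all controls. The log2 fold change was -0.87 (95% interval -1.35 to -0.39, adjusted p = 0.0194, limma), opposite in sign to that of the cytosolic Sars1. Lars2, for leucine, had the lowest log2 fold change, -0.97, but its groups overlapped. Its values were 3.10, 2.29 and 7.55 TPM against 8.61, 11.1 and 6.47 (95% interval -1.88 to -0.06, adjusted p = 0.091). Aars2 (-0.56, adjusted p = 0.103), Cars2 (-0.51, adjusted p = 0.0807) and Hars2 (-0.41, adjusted p = 0.0963) also had lower means in C26 muscle without passing the test. In each of these 4 genes the highest C26 value was that of replicate 3.

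Those calls turned on single muscles. Iars2 and Sars2 lost the call without C26 replicate 1, C26 replicate 2 or control replicate 1, with adjusted p up to 0.0705 and 0.0706 by limma. Wars2 lost it without any of these or control replicate 3, with adjusted p up to 0.13. The higher count was thus 0 without C26 replicate 1, C26 replicate 2 or control replicate 1 and 1 without control replicate 3, and the lower count was 0 without each of the first 3. Without C26 replicate 3 the lower count was 5, since Lars2 (adjusted p = 0.00972), Cars2 (0.0195), Aars2 (0.0245) and Hars2 (0.0308) were then called too. The other mitochondrial genes stayed without a call in every one of these fits. Their log2 fold changes were 0.67 for Ears2, 0.44 for Yars2, 0.23 for Pars2, 0.06 for Mars2 and for Nars2, -0.01 for Tars2, -0.05 for Vars2 and -0.20 for Rars2. Tars2, for threonine, had the change nearest to 0 of them, at 20.5, 21.2 and 18.9 TPM in C26 muscles and 20.5, 19.2 and 21.2 in controls, with a 95% interval from -0.31 to 0.30. The Ears2 interval was wide, from -0.16 to 1.51, and C26 replicate 2 had its highest level, 12.2 TPM.

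The cytosolic and mitochondrial enzymes for the same amino acid could be set side by side in each muscle. There were 17 such gene pairs over 16 amino acids, since Eprs1 pairs with Ears2 and Pars2 and both Farsa and Farsb pair with Fars2. The ratio of cytosolic to mitochondrial TPM was higher in all C26 muscles than in all controls for 12 pairs and lower for 2, and it overlapped for 3. The log2 fold change of the cytosolic gene was above that of its partner in 15 pairs, by a median of 0.87. No test was made over the pairs, and no share over ratios of other gene pairs was computed. Single genes lay apart, with C26 higher, for 27.0% of all genes and, with C26 lower, for 26.5%. The ratios use the same levels as the single genes, so these counts are not separate from those above.

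The largest gaps were in serine, leucine, cysteine and alanine. For serine the Sars1 to Sars2 ratio was 18.05, 16.5 and 6.58 in C26 muscles and 2.69, 2.91 and 2.42 in controls. The leucine ratio, Lars1 to Lars2, was 11.6, 20.1 and 5.42 against 2.35, 2.07 and 3.16. In both pairs C26 replicate 3 had the smallest ratio of its group and still exceeded every control. The cysteine ratio, Cars1 to Cars2, was 9.37, 14.0 and 4.97 against 2.58, 2.46 and 2.34, and the alanine ratio, Aars1 to Aars2, was 26.6, 32.1 and 15.1 against 7.30, 6.92 and 6.94. In each of these pairs the C26 muscles spread more widely than the controls. For isoleucine both genes rose, and the ratio went from 0.863, 1.02 and 1.001 in controls to 2.08, 2.14 and 1.25 in C26 muscles. Tryptophan was the clearest exception, with a Wars1 to Wars2 ratio of 5.78, 7.52 and 7.01 in C26 muscles against 25.8, 9.5 and 12.03 in controls. The ratio of Farsa to Fars2 was also lower, at 0.807, 0.858 and 0.873 against 1.23, 0.989 and 1.34. The overlapping pairs were Eprs1 with Ears2, Farsb with Fars2 and Yars1 with Yars2.

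**Figure D3:**
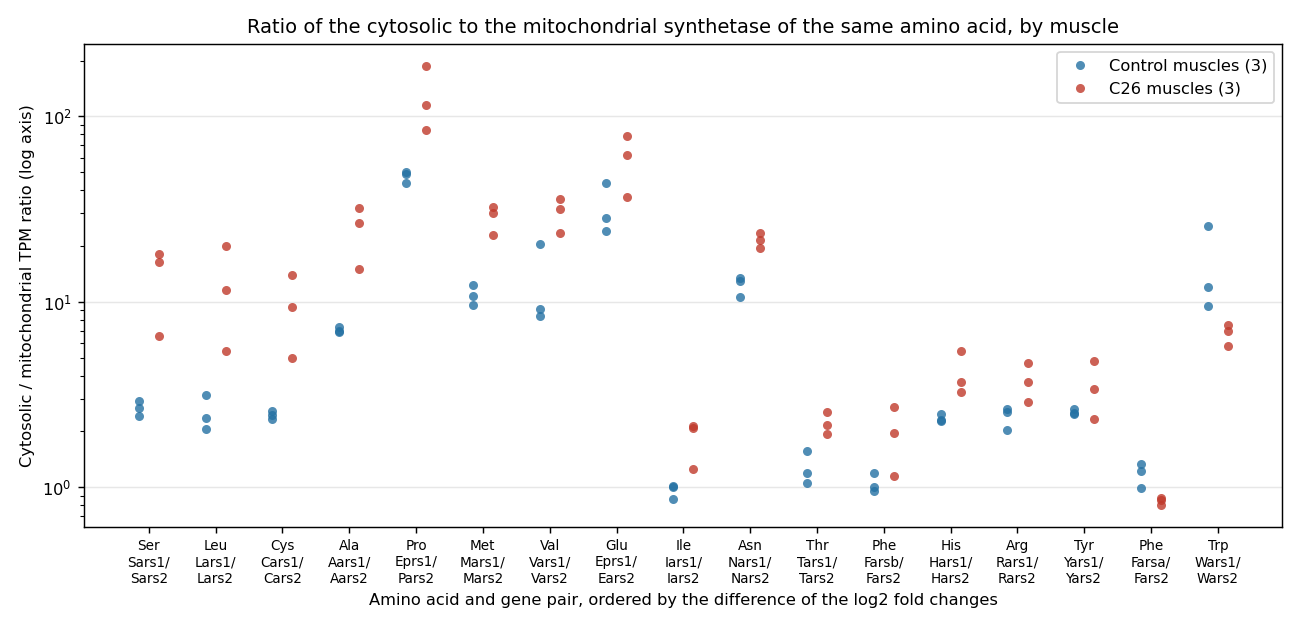
Ratio of the cytosolic to the mitochondrial synthetase level (TMM-scaled TPM, log axis) in each muscle for 17 gene pairs, with controls in blue and C26 muscles in red. The red points lie above all blue ones in 12 pairs, below them for Farsa with Fars2 and Wars1 with Wars2, and among them in 3.

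Summed over the genes, the cytosolic synthetases came to 1839, 2106 and 1533 TPM in C26 muscles against 804.4, 929 and 804.0 in controls. The means were 1826 ± 286 and 846 ± 72.2 (SD, n = 3), a ratio of 2.16, and no C26 muscle came near the controls. The mitochondrial sums were 186, 187 and 204 TPM against 171, 198 and 166, with means of 192 ± 10.5 and 178 ± 17.1, and these groups overlapped. On the mean of log2 levels, the cytosolic genes stood above the mitochondrial genes by 3.08, 3.21 and 2.65 in C26 muscles and by 2.06, 2.01 and 2.08 in controls. Cytosolic to mitochondrial sums stood at 9.90, 11.3 and 7.504 in C26 muscles and at 4.72, 4.70 and 4.84 in controls. Eprs1 was the largest single part of the cytosolic sum in every muscle.

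**Figure D4:**
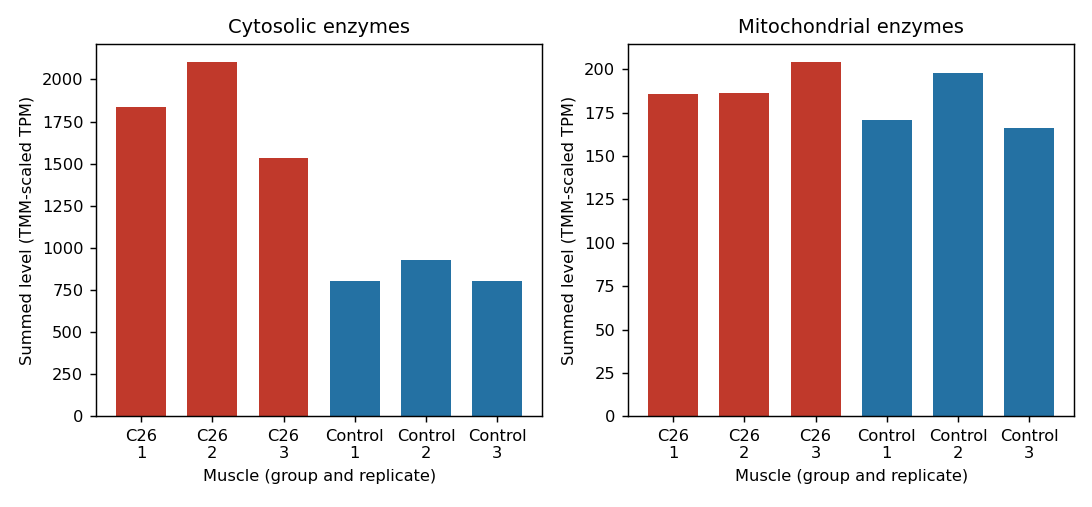
Summed level of the 19 cytosolic and the 16 mitochondrial synthetase genes in each muscle, in TMM-scaled TPM from 0, with C26 muscles in red and controls in blue; the 2 panels have different scales. Cytosolic sums were 1533 to 2106 in C26 muscles and 804.0 to 929 in controls, while mitochondrial sums were 166 to 204 over both groups.

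Of the 3 scaffold genes of the multisynthetase complex, 1 fell and 0 rose, against 14.5% of all genes called lower and 19.4% higher. Aimp2, which holds much of the complex together, fell to 88.4, 169 and 93.2 TPM in C26 muscles from 525, 465 and 522 in controls. All C26 muscles were far below the controls, with a log2 fold change of -2.16 (95% interval -2.80 to -1.53, adjusted p = 0.00403, limma), and the call held in all 6 fits with a muscle left out. Of the exonic bases of Aimp2, 40.8% overlap Eif2ak1 on the other strand, and Eif2ak1 went the other way, from 13.4, 17.3 and 12.6 TPM in controls to 32.1, 37.5 and 24.1. Without strand, reads from the shared bases cannot be told apart. Aimp1 had 139, 136 and 160.4 TPM against 125, 144 and 133, and Eef1e1, which codes for the third scaffold protein, had 15.6, 25.05 and 20.7 against 22.3, 21.9 and 21.2. The groups overlapped for both, with log2 fold changes of 0.11 and -0.11 (adjusted p = 0.548 and 0.66).

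Other synthetase genes and charging enzymes outside the 35 were read from the same fit. The threonyl paralog Tars3 (log2 fold change 0.12, adjusted p = 0.738, limma) and the selenocysteine enzymes Sepsecs (-0.11, adjusted p = 0.658) and Pstk (-0.36, adjusted p = 0.307) were not called. Tars3 and Tars1 are similar in sequence, and reads of 50 bases could be split between them. In mitochondria, glutaminyl-tRNA is made by an amidase of the proteins Qrsl1, Gatb and Gatc rather than by a synthetase of its own. None of the 3 was called, at -0.60, 0.09 and -0.26 on the log2 scale (adjusted p = 0.238, 0.665 and 0.269). Mtfmt, which formylates the mitochondrial initiator tRNA, was called lower at 1.49, 3.20 and 3.41 TPM against 5.60, 5.23 and 5.30 (-0.83, adjusted p = 0.0383), a call that 1 of 6 such fits kept.

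The steps around charging moved to different degrees. Of 15 genes of tRNA maturation and export, 9 rose and 1 fell, with a median log2 fold change of 0.69, against 19.4% of all genes called higher and 14.5% lower. The largest rises were those of Elac2 (1.49) and Elac1 (1.15), which trim the 3′ end of tRNA, Trnt1 (0.99), which adds the CCA tail to which amino acids are joined, and Rtcb (0.96), the tRNA ligase. Tsen34, a subunit of the tRNA splicing endonuclease, fell by 0.84, a call that 2 of 6 fits with a muscle left out kept. The higher count was 3 without C26 replicate 1, 5 without C26 replicate 2 and 4 without control replicate 1. Of 20 genes for RNA polymerase III, which transcribes tRNA genes, and for its factors and regulators, 7 rose and 2 fell, against the same shares of all genes. Among the 7 was Maf1, the repressor of RNA polymerase III (0.51, adjusted p = 0.0379), named after its value was seen. Its call held in 1 of 6 fits with a muscle left out and was lost with a pseudocount of 0.1 (adjusted p = 0.0726, limma). Gtf3c4 (1.61), Polr3d (1.29), Polr3e (1.0) and Gtf3c3 (0.81) led the rises, and Polr3k (-1.38) and Polr3g (-0.99) fell. Here the higher count was 3 or 4 without any 1 muscle other than C26 replicate 3, where it was 8. Of 7 genes that proofread or recycle charged tRNA, Dtd1 alone rose (0.68, adjusted p = 0.0361), against 19.4% of all genes called higher. The call of Dtd1 was kept by 1 of 6 fits with a muscle left out. In the eEF1 complex, which brings charged tRNA to the cytosolic ribosome, 2 of 5 genes rose, against 19.4% of all genes called higher. They were Eef1a2 (0.64, adjusted p = 0.0384) and Eef1d (0.61, adjusted p = 0.0474), while Eef1a1 (-0.20), Eef1b2 (0.20) and Eef1g (0.12) were not called. Without C26 replicate 1, C26 replicate 2, control replicate 1 or control replicate 3 neither was called, and without control replicate 2 just 1 was. Of 9 mitochondrial translation factors, Gfm1 (1.0), Mtif3 (0.83) and Mrrf (0.83) rose and 0 fell. Of all genes, 19.4% were called higher and 14.5% lower. The higher count of these factors was 1 without C26 replicate 1, C26 replicate 2 or control replicate 1.

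**Figure D5:**
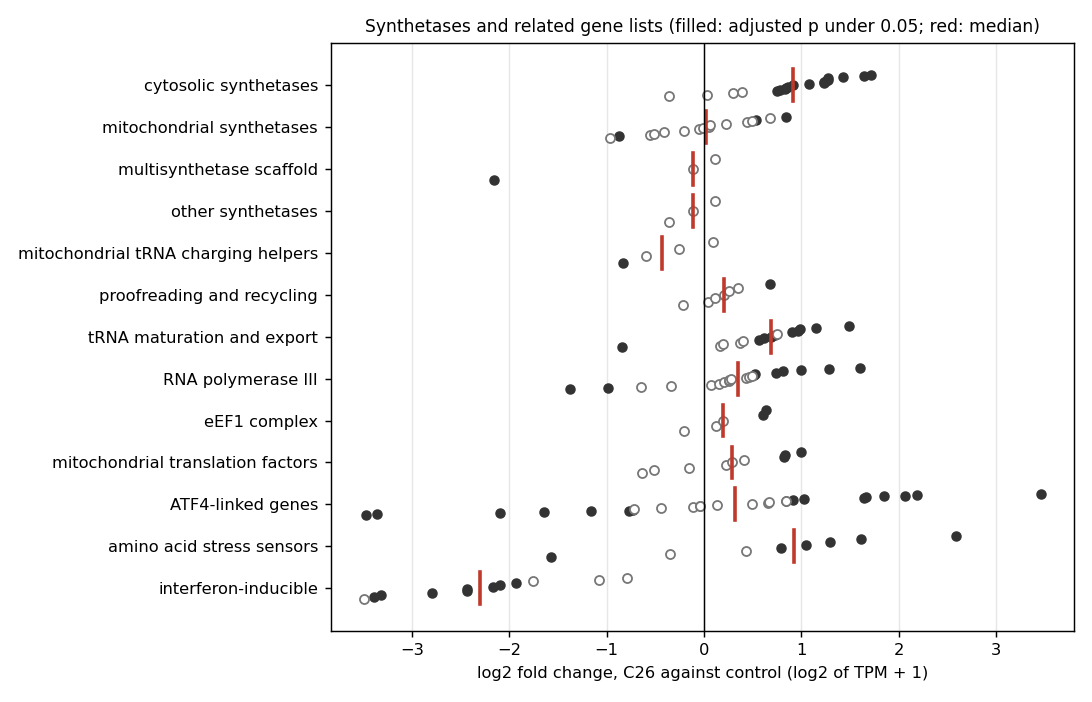
Log2 fold change of each gene, on the log2(TPM + 1) scale, for the synthetases and 11 related gene lists, 1 row a list, with filled points for an adjusted p under 0.05 and a red bar at the list's median. The cytosolic synthetases lie to the right with a median of 0.91, the mitochondrial ones around 0.02, and the ATF4-linked genes spread from -3.47 to 3.46.

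Atf4, the transcription factor whose known targets include synthetase genes, was itself higher in C26 muscle. It measured 569.6, 574 and 571 TPM in C26 muscles against 172, 188 and 187 in controls, which is a rise of 1.64 log2 units (SE 0.12, adjusted p = 0.00128, limma). The C26 muscles were almost equal for Atf4. Whether Atf4 acted on the synthetase genes in these muscles was not tested. The genes linked to Atf4 moved in both directions. Of 26 listed, with Atf4 itself among them, 9 rose and 7 fell, with a median log2 fold change of 0.32, where 19.4% of all genes were called higher and 14.5% lower. Eif4ebp1, an inhibitor of cap-dependent translation, rose by 3.46, Gadd45a by 2.19, Cebpb by 2.06 and Chac1, a glutathione-degrading enzyme, by 1.85. The enzymes of serine synthesis, Phgdh (-3.36), Psph (-2.10) and Psat1 (-1.64), fell, as did the amino acid transporter Slc1a5 (-3.47). The lower count was 4 without C26 replicate 1 or control replicate 1. Ddit3, the stress factor CHOP, had 18.3, 25.4 and 29.8 TPM against 24.9, 27.7 and 21.8 and was not called (-0.04, adjusted p = 0.898). Ddit3 overlaps Mars1 on the other strand over 2.29% of the exonic bases of Mars1.

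Genes that sense uncharged tRNA or act on eIF2α were also read. Of 8, 5 rose and 1 fell, with a median log2 fold change of 0.92, against 19.4% of all genes called higher and 14.5% lower. Ppp1r15a, the stress-induced subunit of the eIF2α phosphatase, rose by 2.59, Impact, an inhibitor of Gcn2, by 1.62, Gcn1, which helps to activate Gcn2, by 1.3 and Eif2ak1, a heme-regulated eIF2α kinase, by 1.05. The gene of Gcn2 itself, Eif2ak4, named after its value was seen, rose by 0.79 (adjusted p = 0.0357, limma), a call that 1 of 6 fits with a muscle left out kept. Eif2ak2, the interferon-inducible kinase PKR, fell by 1.58. The higher count was 3 without C26 replicate 1 or control replicate 1, and the lower count was 0 without C26 replicate 1, C26 replicate 2 or control replicate 2.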

How the data were processed

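RNA of 3 C26 and 3 control gastrocnemius muscles was analysed, with groups taken from the labels. The authors depleted rRNA, read 50 bases from 1 end of each fragment, mapped them to GRCm38.p5 with bowtie2 and derived the deposited FPKM with RSEM. The submitters' processing notes list mm9, HISAT2 2.0.4, Bowtie2 2.2.5 and RSEM 1.2.12. Counts and strandedness were not given in the sources used here. FPKM were rescaled to TPM (a sum of 1000000 per muscle), divided by TMM factors (trimming 30% of log ratios and 5% of mean levels) and log2-transformed with a pseudocount of 1. Groups were compared with limma 3.58.1 (R 4.3.3, empirical Bayes) over all 13363 genes, tested on simulated data. Symbols were matched for 13327 genes through the RefSeq GRCm38.p6 table. Members and lists were chosen with earlier results of these data known. All 35 members are named. Some items are not reported here. From related lists, every gene is named for lists of 5 or fewer, otherwise up to 4 called genes with the largest change in each direction, with Atf4 and Ddit3. Other settings were a pseudocount of 0.1, genes with a mean TPM of at least 1, TPM unscaled by TMM, the deposited FPKM, quantile normalization, a block for the replicate number, an intensity trend in the prior variance and each muscle left out. Figures were drawn with matplotlib 3.10.9 under Python 3.11.15.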

Additional observations from a re-analysis of the deposited data

How the results depend on the processing

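Depth is unknown, so the counting error behind low genes such as Wars2, Vars2 and Pars2 could not be given, and with 3 muscles a group each count of calls rests on single muscles. The direction of all 15 called cytosolic genes and of Iars2, Wars2 and Sars2 was the same under every setting tried. A pseudocount of 0.1 and a filter on a mean TPM of 1 changed no call among the 35 genes. On the FPKM as deposited, 1678 genes were called higher over all genes, and the mitochondrial genes had 1 call higher, 5 lower and a median log2 fold change of -0.14, beside a median of -0.14 over all genes. Under quantile normalization, 9 cytosolic genes were called higher with a median of 0.61, and 1 mitochondrial gene was called higher with a median of 0.21, so the difference of the medians was 0.39 against 0.89. With an intensity trend, 1 mitochondrial gene was called higher, as Wars2 lost its call. The cause of these shifts was not tested. Genes without a call that changed sign were Hars1 (-0.011), Farsa (-0.27) and Vars2 (0.31) under quantile normalization, Farsa (-0.17), Mars2 (-0.083) and Nars2 (-0.12) on deposited FPKM, and Tars2 (0.023) without TMM. Of the related lists, RNA polymerase III had 4 genes higher with a pseudocount of 0.1 and 4 higher and 4 lower on deposited FPKM, where 2 charging helpers were lower. tRNA maturation had 5 higher on deposited FPKM and under quantile normalization, and both put 1 mitochondrial translation factor lower. Quantile normalization left 0 charging helpers and 0 stress sensors lower. The proofreading and eEF1 lists had 0 higher with a pseudocount of 0.1, without TMM, on deposited FPKM and under quantile normalization, and eEF1 had 1 with an intensity trend.

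With the replicate number as a block, 14 cytosolic genes were called higher, 1 mitochondrial gene higher and 1 lower, and 1235 genes lower over all genes. Vars1 and Wars2 lost their calls. In the related lists, 5 genes of tRNA maturation were then higher and 0 lower, 0 charging helpers were lower, and 0 proofreading and 0 eEF1 genes were higher. The deviations of same-numbered muscles from their group means correlated at -0.04, -0.08 and -0.11 over 13363 genes, so the numbers do not pair the muscles.

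Leaving out 1 muscle in turn gave 1127 to 3311 genes called higher and 669 to 2160 lower over all genes, 7 to 16 cytosolic genes higher, 0 to 2 mitochondrial genes higher and 0 to 5 lower. The medians were 0.84 to 1.10 and -0.059 to 0.12, and their difference 0.84 to 0.98. Genes that changed sign in these fits ranged from -0.037 to 0.12 (Farsa), -0.036 to 0.47 (Pars2), -0.13 to 0.32 (Mars2), -0.045 to 0.12 (Tars2) and -0.13 to 0.13 (Vars2). Counts in the related lists ranged from 3 to 11 higher and 0 to 1 lower for tRNA maturation, 3 to 8 higher for RNA polymerase III, 6 to 9 higher and 4 to 8 lower for ATF4-linked genes, 3 to 5 higher and 0 to 1 lower for stress sensors, 3 to 11 lower for interferon-inducible genes and 1 to 4 higher and 0 to 1 lower for mitochondrial translation factors. They were 0 to 2 higher for eEF1, 0 to 2 lower for charging helpers, 0 to 1 higher for proofreading and 0 to 1 lower for the other synthetases (Pstk without C26 replicate 3).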
